A study of Arabidopsis thaliana with 12 samples.

Results

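The response of the pip2;5 mutant to air humidity was read as the difference between 3 libraries from inflorescence meristems kept in high humidity and 3 from meristems kept in low humidity, across all genes counted. These 6 of the 12 libraries of the study came from the mutant, and the other 6 came from the wild type in the same 2 humidities. Every library was made from dissected inflorescence meristems of Arabidopsis thaliana. The 4 groups were pip2 at high humidity, pip2 at low humidity, col0 at high humidity and col0 at low humidity, with 3 libraries each. The sample labels call the mutant pip2 or pip2d and the design text calls it pip2;5, and PIP2D is another name of PIP2;5 in the annotation. The allele, the humidity levels, the length of the treatment, the age of the plants and the hour of sampling are not given in the sources used here. Whether the replicates came from separate plants or pools is not given either, so p-values reflect how these libraries spread, which may be technical.

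PIP2;5 is a plasma membrane aquaporin, one of a family of channels that let water pass through cell membranes. The inflorescence meristem is the dome of dividing cells at the shoot tip that makes flowers, and it is fed with sugar and water from the stem below. Dry air pulls water from the plant surface, and plants answer a shortage of water with abscisic acid (ABA), a hormone that closes stomata and switches on protective proteins such as dehydrins. Humid air lowers transpiration. The question here is which genes the mutant meristem changes between these 2 states of the air, and where that change differs from the wild type's.

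The pip2 libraries held 17850187 to 23088975 counts. Humidity was the main axis among all 12 libraries: the first principal component took 38.0% of the variance and put all 6 high-humidity libraries on one side. In pip2 at high humidity, replicate 2 stood apart from its replicates. It correlated at 0.9847 and 0.9845 with them across genes (log2 CPM), while the other pair correlated at 0.9886, and their counts differed by a chi-square of 10.7 and 11.0 per degree of freedom, against 4.94 for the other pair. Counts of list members that it moved by more than 1.5 times are given with and without it. Without this library 2095 genes rose and 2254 fell, 352 rose and 224 fell at least 2-fold, and 75.5% of the genes called with it were called again. That loss was not particular to replicate 2: the share was 73.5% to 83.3% when any other 1 pip2 library was left out. The tissue label was checked against meristem genes: at high and low humidity STM, which keeps meristem cells undifferentiated, stood at 43.5 to 51.6 and 39.1 to 54.4 CPM, and WUS, which marks the stem cell centre, at 17.7 to 29.8 and 26.6 to 33.8 CPM. CPM is the count of a gene relative to the scaled library total. In pip2 at high and low humidity the 40 tested stem cell and boundary regulators summed to 2000 to 2150 and 2020 to 2170 CPM. The 17 tested anther and pollen genes summed to 4870 to 5530 and 3890 to 5030 CPM, so the libraries also held transcripts of that list.

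Transcripts of PIP2;5 (AT3G54820) were nearly gone in the mutant. Its counts were 13, 25 and 20 in pip2 at high humidity and 24, 12 and 11 in pip2 at low humidity. In CPM these were 0.727, 1.09 and 1.07 at high humidity against 1.19, 0.623 and 0.548 at low humidity. The col0 libraries stood at 50.8, 49.5 and 52.1 CPM at high humidity and 70.4, 71.8 and 70.1 CPM at low humidity. All 6 mutant libraries thus lay below all 6 wild-type libraries. Within pip2 the 2 humidities overlapped, and the log2 fold change of 0.30 ± 0.24 (SE) did not pass the test (adjusted p = 0.46).

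High humidity changed the mutant meristem widely, and most changes were small. Of 21897 tested genes, 5294 passed the test (24.2%), 2684 of them higher (12.3%) and 2610 lower (11.9%) in high humidity. The test was edgeR's quasi-likelihood test with Benjamini-Hochberg adjustment over all tested genes, and genes are said to rise or fall where the adjusted p was under 0.05. The median absolute log2 fold change of the genes that passed was 0.40. Of the genes that passed, 63.5% changed by less than 0.5 on the log2 scale, 24.4% by 0.5 to 1, 9.60% by 1 to 2, 1.87% by 2 to 3 and 0.586% by more than 3. The upper end leaned upwards: 426 genes rose at least 2-fold (1.95% of tested genes) and 212 fell at least 2-fold (0.968%). The median log2 fold change of all tested genes was 0.014. The high and low libraries of pip2 did not overlap in 8334 tested genes (38.1%), so groups that lie apart, as described below, are common. Among the 638 genes that passed and changed at least 2-fold, 624 had groups that did not overlap, so for such genes separate groups add little to the call. The rule that named the genes with the largest changes also required groups without overlap.

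Among genes with a symbol and a mean of at least 5 CPM, those that rose most included SEN1, FTM1 and ABCB21. SEN1 (AT4G35770), a gene induced by darkness and ageing, had 33.0, 53.6 and 47.2 CPM in pip2 at high humidity, against 1.73, 1.35 and 2.04 CPM at low humidity (log2 fold change 4.70 ± 0.28, adjusted p = 1.43e-06). FTM1 (AT1G43800), which encodes a stearoyl-ACP desaturase, had 25.6, 49.0 and 66.9 CPM at high and 2.96, 2.13 and 2.54 CPM at low humidity (4.21 ± 0.41, adjusted p = 0.000132). In both genes every high library lay far above every low one. In CPM the 3 high libraries differed among themselves more than the 3 low ones, but around a far higher mean. For SEN1 the mean and SD were 44.6 and 10.6 CPM at high against 1.71 and 0.346 CPM at low humidity. For FTM1 they were 47.2 and 20.8 CPM against 2.54 and 0.417 CPM. ABCB21 (AT3G62150), a transporter of auxin, had 8.67, 17.1 and 15.3 CPM at high and 1.53, 1.87 and 1.99 CPM at low humidity (2.93 ± 0.24, adjusted p = 4.33e-07). BXL1, a cell wall beta-xylosidase, had 147, 266 and 154 CPM at high and 33.6, 36.8 and 35.3 CPM at low humidity (2.43 ± 0.21, adjusted p = 5.27e-05). The groups of both genes were separate, and replicate 2 gave the highest value of each. ERD6, a sugar transporter of the vacuole membrane, rose by 2.32 ± 0.24 and CYP71B22 by 2.01 ± 0.10 on the log2 scale. The widest spread was in ERF104, an ethylene response factor, with 3.86, 13.5 and 23.1 CPM at high against 2.27, 2.75 and 1.69 CPM at low humidity (2.59 ± 0.74, adjusted p = 0.0352). Its adjusted p was 0.0762 to 0.112 when high replicate 2, high replicate 3 or any 1 low library was left out.

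Among genes with a symbol and a mean of at least 5 CPM, those that fell most included GPT2, TAT3 and IGMT5. GPT2 (AT1G61800), which carries glucose phosphate into plastids for starch, had 0.783, 0.958 and 1.02 CPM in pip2 at high humidity, against 11.7, 9.97 and 7.52 CPM at low humidity (-3.39 ± 0.21, adjusted p = 7.76e-09). TAT3 (AT2G24850), a tyrosine aminotransferase that jasmonate induces, had 0.671, 0.784 and 1.55 CPM at high and 16.4, 10.1 and 3.93 CPM at low humidity (-3.34 ± 0.53, adjusted p = 0.000923). The high and low libraries were apart in both genes, though the low libraries of TAT3 were widely spread. IGMT5 (AT1G76790), a methyltransferase of indole glucosinolates, had 1.06, 1.70 and 1.66 CPM at high and 9.88, 8.10 and 13.3 CPM at low humidity (-2.81 ± 0.24, adjusted p = 2.62e-07). The other genes of this end that the naming rule gave included ChlAKR, a chloroplast aldo-keto reductase (-1.82), the outer envelope proteins OEP6 (-1.78) and OEP16-1 (-1.59), and CPL3 (-1.61).

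**Figure D1:**
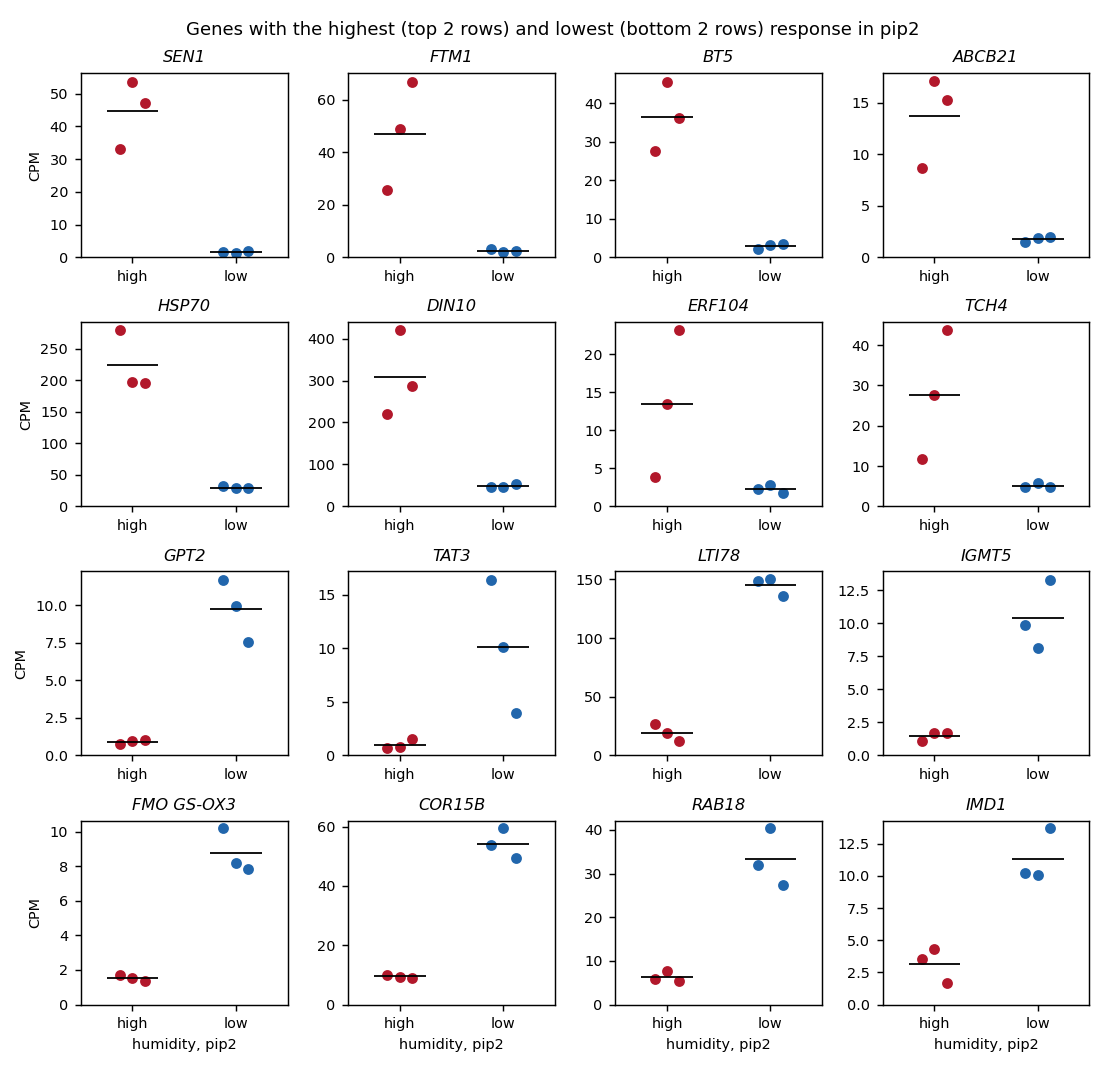
Levels in CPM (linear axes from 0) of 16 genes in the 3 high-humidity (red, left) and 3 low-humidity (blue, right) libraries of pip2, with black lines at the group means; the upper 2 rows hold the 8 genes that rose most and the lower 2 rows the 8 that fell most under the naming rule. SEN1 stood at 33.0 to 53.6 CPM at high and 1.35 to 2.04 CPM at low humidity, and GPT2 at 0.783 to 1.02 CPM at high and 7.52 to 11.7 CPM at low humidity. The naming rule took only genes whose groups do not overlap.

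Large changes also reached abundant transcripts, which were compared in TPM, the authors' length-scaled unit. Among genes with a symbol and a TPM value that rose at least 2-fold, CP5 was the most abundant with 843 ± 56.7 TPM in pip2 at high humidity and 268 ± 13.8 TPM at low humidity (SD, n = 3 each, as for all TPM values here). The sugar exporter gene SWEET10 had 369 ± 28.6 TPM at high and 118 ± 15.7 TPM at low humidity. The genes of the small chloroplast J-domain proteins J11 and J8 had 342 ± 35.8 and 358 ± 58.9 TPM at high and 115 ± 7.67 and 96.5 ± 6.69 TPM at low humidity. GASA1, a gibberellin-regulated peptide gene, had 290 ± 39.5 TPM at high and 123 ± 19.0 TPM at low humidity. Among such genes that fell at least 2-fold, the cold and drought gene KIN2 was the most abundant, with 676 ± 42.7 TPM at high and 1450 ± 31.4 TPM at low humidity. It was followed by the jasmonate enzyme gene LOX2, with 294 ± 25.4 TPM at high and 766 ± 86.6 TPM at low humidity, and by LTP4, a lipid transfer protein gene, with 181 ± 29.3 TPM at high and 458 ± 74.1 TPM at low humidity. The annexin gene ANNAT1 had 88.2 ± 0.998 TPM at high and 181 ± 13.3 TPM at low humidity. XPL1, which makes the head group of membrane phosphatidylcholine, had 71.6 ± 14.8 TPM at high and 195 ± 13.4 TPM at low humidity.

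Genes that plants induce when sugar runs low rose together in the mutant. Of 29 tested sugar starvation genes, 19 rose and 2 fell, where 12.3% and 11.9% of all genes did, and the median log2 fold change was 0.86. Without high replicate 2 the counts were 17 and 2, and leaving out any 1 pip2 library gave 0 to 2 falls. Relative to the low-humidity mean, the list averaged 0.73, 1.04 and 0.88 log2 in the 3 high libraries and -0.042, 0.005 and 0.037 in the low ones. Its summed level was 2180 to 3050 CPM at high and 1270 to 1420 CPM at low humidity. DIN10 (AT5G20250), a raffinose synthase-like gene induced by dark and starvation, had 219, 420 and 287 CPM at high and 45.8, 46.6 and 52.8 CPM at low humidity (2.67 ± 0.23, adjusted p = 6.29e-05). BT5 (AT4G37610), a BTB and TAZ domain gene of a family that responds to sugar and nitrogen, had 27.6, 45.6 and 36.1 CPM at high and 2.1, 3.2 and 3.4 CPM at low humidity (3.65 ± 0.20, adjusted p = 1.28e-07). The groups were apart in both, and replicate 2 was again the highest. TPS8, one of the class of trehalose phosphate synthase-like genes that sugar represses, rose by 1.17 ± 0.078, as did TPS9, TPS10 and TPS11 (0.95, 0.54 and 0.93). The bZIP transcription factors of low-energy signalling followed: BZIP63 (1.28 ± 0.12), bZIP1 (1.2) and BZIP53 (0.45) rose. Enzymes that break down branched-chain amino acids rose too, with 0.97 for DIN4, 0.86 for MCCA and 0.72 for BCAT-2. The 2 members that fell were BT1 (-0.57) and BT4 (-0.23), and the asparagine synthetase gene ASN1, a classical dark-induced gene, had 0.89 with an adjusted p of 0.136.

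Of 9 genes that sugar induces, 5 fell and 3 rose, which became 5 and 1 without high replicate 2. Beside GPT2, the genes that fell included APL4, a subunit of the starch synthesis enzyme ADP-glucose pyrophosphorylase, and BAM5, a beta-amylase. APL4 had 32.8, 26.4 and 28.0 CPM at high and 66.5, 62.9 and 65.0 CPM at low humidity (-1.16 ± 0.077, adjusted p = 1.81e-08). BAM5 had 496, 452 and 439 CPM at high and 751, 885 and 922 CPM at low humidity (-0.88 ± 0.081, adjusted p = 7.22e-07). In both genes all high libraries lay below all low ones. CWINV1, a cell wall invertase that splits sucrose, was among those that rose (1.51 ± 0.41, adjusted p = 0.0239).

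Promoters of the genes that changed most are shown because the letters before the gene start can be set beside the changes. For 21604 of the tested genes the 250 bases before the annotated start were read from the RefSeq sequence of TAIR10.1 and searched on both strands. The sugar starvation element TATCCA was present in 19.6% of the promoters of 419 genes that rose at least 2-fold, in 9.57% of those of 209 genes that fell at least 2-fold, and in 14.1% of all. Of genes with no match 11.8% rose in pip2, of genes with 1 match 14.5%, and of genes with 2 or more 19.9%. The element was present in 24.1% of 29 promoters of the sugar starvation list and in none of 9 of the sugar-induced list. It was not particular to starvation genes, with 31.1% of 45 photosynthesis promoters and 53.8% of 13 promoters of chloroplast regulators. BT5 held 3 matches, capitalised here together with 1 match to the drought element CCGAC described below. The plus or minus sign gives the strand of the gene, and sequences run 5′ to 3′ along it.
BT5, chr4:17672354-17672603, minus: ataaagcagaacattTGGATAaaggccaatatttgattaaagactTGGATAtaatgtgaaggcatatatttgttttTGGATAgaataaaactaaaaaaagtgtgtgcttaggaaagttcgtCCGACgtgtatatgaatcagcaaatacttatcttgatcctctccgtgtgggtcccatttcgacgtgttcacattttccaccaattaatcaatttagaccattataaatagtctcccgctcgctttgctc
A match is a description of the letters, and binding was not measured.

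Drought and cold proteins moved the other way. Of 26 tested dehydration genes, 18 fell and 2 rose, with a median log2 fold change of -0.84, and the counts without high replicate 2 were 18 and 1, with 1 to 2 rises when any 1 pip2 library was left out. Their summed level was 2520 to 3080 CPM in pip2 at high humidity and 4110 to 4640 CPM at low humidity. LTI78 (AT5G52310, also RD29A), the standard reporter gene of drought signalling, had 26.6, 19.2 and 12.5 CPM at high and 149, 150 and 136 CPM at low humidity (-2.90 ± 0.21, adjusted p = 1.59e-05). COR15A (AT2G42540), which protects chloroplast membranes in freezing and drying, had 125, 121 and 115 CPM at high and 399, 453 and 393 CPM at low humidity (-1.79 ± 0.073, adjusted p = 8.01e-11). COR15B had 10.1, 9.36 and 8.99 CPM at high and 53.7, 59.5 and 49.3 CPM at low humidity (-2.52 ± 0.11, adjusted p = 1.98e-10). All of these were lower in every high library than in any low one. The dehydrin LTI30 had 2, 7 and 7 counts at high and 113, 129 and 124 counts at low humidity (-4.49 ± 0.32, adjusted p = 3.53e-08). RAB18, another dehydrin and a marker of ABA, had 5.76, 7.62 and 5.30 CPM at high and 32.0, 40.4 and 27.3 CPM at low humidity (-2.41 ± 0.16, adjusted p = 5.72e-08). RD20, a calcium-binding caleosin, fell to 103 ± 16.1 TPM at high humidity, against 238 ± 20.6 TPM at low humidity. The 2 members that rose were ERD15 (0.78 ± 0.077, adjusted p = 1.41e-06) and CBF2, a cold regulator with 13, 29 and 49 counts at high and 6, 8 and 7 at low humidity. Its relative CBF3 fell (-1.0 ± 0.15, adjusted p = 0.00011).

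The drought and cold element CCGAC, which CBF and DREB proteins are known to bind, was present in 21.1% of the promoters of genes that fell at least 2-fold, in 11.2% of those of genes that rose at least 2-fold, and in 12.4% of all. In the dehydration list it was present in 38.5% of 26 promoters. The G-box CACGTG, whose letters overlap those of the ABA response element ACGTGNC, was present in 13.4% of promoters of genes that fell, 6.68% of genes that rose and 7.17% of all. The share of ACGTGNC was 14.8%, 10.3% and 9.26% in the same order. LTI78, LTI30 and COR15A are shown with CCGAC and CACGTG in capitals on either strand, so CCGAC on the other strand reads GTCGG.
LTI78, chr5:21240467-21240716, plus: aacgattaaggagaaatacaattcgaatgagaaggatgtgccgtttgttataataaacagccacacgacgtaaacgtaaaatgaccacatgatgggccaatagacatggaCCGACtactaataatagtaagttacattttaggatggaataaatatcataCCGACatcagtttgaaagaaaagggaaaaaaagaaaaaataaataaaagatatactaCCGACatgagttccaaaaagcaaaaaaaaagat
LTI30, chr3:18940393-18940642, plus: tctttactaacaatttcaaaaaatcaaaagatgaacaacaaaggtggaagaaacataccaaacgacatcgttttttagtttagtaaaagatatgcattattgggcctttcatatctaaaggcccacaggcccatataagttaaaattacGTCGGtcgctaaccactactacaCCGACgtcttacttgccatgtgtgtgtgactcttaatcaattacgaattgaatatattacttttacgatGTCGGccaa
COR15A, chr2:17712331-17712580, minus: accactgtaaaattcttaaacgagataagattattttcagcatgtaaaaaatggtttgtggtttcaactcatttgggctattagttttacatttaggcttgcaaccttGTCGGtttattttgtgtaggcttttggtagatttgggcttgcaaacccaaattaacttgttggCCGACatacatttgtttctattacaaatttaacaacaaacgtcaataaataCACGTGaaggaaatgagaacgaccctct
LTI78 and LTI30 each held 3 matches to CCGAC, and COR15A held 2 with 1 G-box. A match to CCGAC alone did not separate all genes: of those with 2 or more matches 15% fell and 9.25% rose, against 11.7% and 12.4% of those with none.

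Of 23 tested ABA genes 7 rose and 10 fell, or 7 and 9 without high replicate 2. Among those that rose were 4 receptor genes, picked after their values were seen. PYR1 had 97.5, 121 and 105 CPM in pip2 at high humidity and 37.4, 39.8 and 39.5 CPM at low humidity (1.47 ± 0.076, adjusted p = 9.23e-10). PYL4 had 135, 149 and 151 CPM at high and 44.9, 47.0 and 48.7 CPM at low humidity (1.63 ± 0.065, adjusted p = 7.79e-11). PYL5 had 34.9, 37.4 and 42.6 CPM at high and 8.49, 8.47 and 9.16 CPM at low humidity (2.14 ± 0.10, adjusted p = 1.98e-10). PYL6 rose as well (1.63 ± 0.11, adjusted p = 3.22e-08). No high library of these 4 receptors overlapped a low one, which also holds for 38.1% of all tested genes. It holds for 624 of the 638 genes that passed and changed at least 2-fold, so it adds little to these calls. The phosphatase gene HAI2, whose product damps ABA signalling and which ABA induces, fell (-1.59 ± 0.15, adjusted p = 6.69e-07), and so did NCED3, which makes the rate-limiting enzyme of ABA synthesis under drought, at a low level (0.839, 0.566 and 0.535 CPM at high and 1.68, 1.3 and 1.25 CPM at low humidity, -1.13 ± 0.33, adjusted p = 0.0208). The transcription factor gene RD26 fell by 1.12 on the log2 scale (adjusted p = 0.000246).

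Proline, which plants store when water is short, is made by P5CS1 and P5CS2 and broken down first by the dehydrogenase ERD5. P5CS1 (AT2G39800) had 91.4, 92.5 and 80.7 CPM in pip2 at high humidity and 219, 263 and 238 CPM at low humidity (-1.44 ± 0.073, adjusted p = 7.48e-10). P5CS2 fell as well (-0.38 ± 0.080, adjusted p = 0.00254). ERD5 (AT3G30775) went the other way, with 335, 527 and 429 CPM at high and 119, 130 and 140 CPM at low humidity (1.73 ± 0.13, adjusted p = 2.71e-06). The synthesis genes were lower and the breakdown gene higher in every high library than in any low one. All 3 also differed from the wild type in their response: in col0 the log2 fold changes were -0.94, 0.21 and 0.57, and the differences of -0.51, -0.59 and 1.16 had adjusted p-values of 0.035, 0.0292 and 0.0195. For ERD5 this p was 0.0588 without high replicate 3, 0.0874 without low replicate 1 and 0.0605 without low replicate 2.

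Genes of heat protection rose. Of 31 tested heat shock and chaperone genes of the cytosol and organelles, 23 rose and 2 fell, with a median log2 fold change of 1.12, and the counts without high replicate 2 were the same. HSP70 (AT3G12580), a stress-induced chaperone, had 279, 197 and 195 CPM in pip2 at high humidity and 32.3, 28.7 and 28.3 CPM at low humidity (2.91 ± 0.17, adjusted p = 1.17e-06). HSP90.1 had 80.5, 62.8 and 65.3 CPM at high and 17.1, 15.7 and 16.0 CPM at low humidity (2.09 ± 0.16, adjusted p = 4.49e-06). The co-chaperone genes Hop3 (2.19 ± 0.11) and ROF2 (1.83 ± 0.10) and the coactivator gene MBF1C (1.70 ± 0.23) rose with them. The constitutive HSC70-1 rose less, to 2540, 2420 and 2490 CPM at high against 1680, 1750 and 1730 CPM at low humidity (0.53 ± 0.074, adjusted p = 6.44e-05). A pair of small heat shock genes were almost silent in dry air: HSP17.6A had 29, 32 and 43 counts at high and 4, 1 and 3 at low humidity, and HSP23.6-MITO had 22, 26 and 18 counts at high and 0, 0 and 2 at low humidity. Among 12 heat shock factors 5 rose and none fell, among them HSFA2 (7.49, 5.88 and 5.78 CPM at high, 1.93, 2.6 and 2.19 CPM at low humidity, 1.51 ± 0.17, adjusted p = 6.11e-06). Chaperones of the endoplasmic reticulum did not share this direction: 5 of 27 rose (3 without high replicate 1 or low replicate 2) and 8 fell, BIP3 among those that fell (-0.98 ± 0.24, adjusted p = 0.0117). The heat shock letters GAANNTTC were present in 11.2% of promoters of genes that rose at least 2-fold, 7.66% of those that fell and 9.39% of all. In the heat shock and chaperone list they were present in 9.68% of 31 promoters, near the share of all. Small heat shock genes and others with close copies (LHCB1, PIP) may share reads.

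Most tested genes of aliphatic glucosinolates, the sulfur-rich defence compounds made from methionine, fell. Of 22 tested members, 17 fell and none rose, with a median log2 fold change of -1.2, and 18 fell without high replicate 2. The list averaged -1.15, -1.26 and -1.45 log2 below the low mean in the 3 high libraries. Of the regulators, MYB28 had 23.1, 23.1 and 25.4 CPM in pip2 at high humidity and 34.6, 32.7 and 33.3 CPM at low humidity (-0.49 ± 0.078, adjusted p = 0.000212), while MYB29 had 4, 2 and 0 counts at high and 20, 16 and 25 counts at low humidity. In the chain elongation steps, MAM1 had 4.70, 3.66 and 2.03 CPM at high and 11.4, 11.0 and 10.8 CPM at low humidity (-1.67 ± 0.28, adjusted p = 0.000976). The isomerase subunit genes IPMI1 (-2.38 ± 0.22) and IPMI2 (-2.77), the dehydrogenase gene IMD1 (-1.82 ± 0.28) and the plastid transporter gene BAT5 (-2.01 ± 0.23) fell with it. In the core steps, CYP79F1 had 1.23, 0.914 and 1.02 CPM at high and 4.25, 3.95 and 4.43 CPM at low humidity (-2.00 ± 0.24, adjusted p = 1.05e-05). CYP83A1 had 13.5, 15.2 and 9.95 CPM at high and 45.9, 36.6 and 44.1 CPM at low humidity (-1.71 ± 0.22, adjusted p = 0.000361). No high library reached a low one in any of these genes. The side-chain oxidases FMO GS-OX3 (-2.53 ± 0.26) and FMO GS-OX2 (-0.92) fell as well. In col0 11 of the 22 fell and the median was -0.50, yet no member's difference between the genotypes passed the test; for MAM1 the col0 value was -0.34 (adjusted p = 0.37) and the difference -1.34 had an adjusted p of 0.294.

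Indole glucosinolates, which are made from tryptophan, and the myrosinases that activate both kinds gave 3 rises and 7 falls among 19. CYP79B2 had 7.49, 9.19 and 9.20 CPM in pip2 at high humidity and 12.6, 14.5 and 14.2 CPM at low humidity (-0.67 ± 0.15, adjusted p = 0.00293), and CYP83B1 had 43.9, 52.1 and 50.7 CPM at high and 68.7, 64.1 and 69.8 CPM at low humidity (-0.46 ± 0.11, adjusted p = 0.00552). The 3 that rose were MYB51 (1.88 ± 0.37), IGMT4 (2.90 ± 0.68) and the myrosinase TGG2 (0.89 ± 0.27, adjusted p = 0.0455). Most listed genes of sulfur supply rose while most aliphatic glucosinolate genes fell: 8 of 13 genes of the sulfur list rose and none fell. Outside that list AKN2, a kinase of sulfate activation described below, fell. SDI1, a repressor of aliphatic glucosinolate synthesis that sulfur shortage induces, had 8.05, 5.36 and 5.94 CPM at high and 2.27, 1.97 and 1.49 CPM at low humidity (1.74 ± 0.20, adjusted p = 8.63e-06). The sulfate reductase genes APR2 (0.76 ± 0.087) and APR3 (0.70 ± 0.10) and the transporter gene SULTR2;1 (0.60 ± 0.10) rose too.

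Jasmonate, the hormone of wounding and flower development, had lower transcript levels at several steps of its synthesis. Of 16 synthesis genes 9 fell and none rose, and of 18 signalling and output genes 10 fell and 3 rose. The last counts became 11 and 2 without high replicate 2, and 1 to 3 rose when any 1 pip2 library was left out. LOX2 (AT3G45140) had 638, 708 and 579 CPM in pip2 at high humidity and 1400, 1690 and 1830 CPM at low humidity (-1.35 ± 0.10, adjusted p = 3.5e-08). OPR3 had 46.0, 48.8 and 44.5 CPM at high and 83.0, 89.4 and 91.5 CPM at low humidity (-0.92 ± 0.066, adjusted p = 3.78e-08). Among the allene oxide cyclase genes AOC2 fell by 1.33, AOC3 by 1.05 and AOC4 by 0.65 on the log2 scale, while AOS, the step before them, had -0.16 ± 0.10 with an adjusted p of 0.263. The repressor JAZ10 had 15.5, 21.6 and 17.0 CPM at high and 32.0, 37.7 and 36.4 CPM at low humidity (-0.97 ± 0.16, adjusted p = 0.000815). VSP1, a storage protein that jasmonate induces, fell to 2620, 3180 and 2740 CPM at high against 4270, 4760 and 4940 CPM at low humidity (-0.71 ± 0.10, adjusted p = 4.2e-05).

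Morning genes of the circadian clock rose as a block. The clock is a loop in which LHY and CCA1 act around dawn and repress evening genes such as TOC1, LUX and ELF4. Of 12 tested morning genes 11 rose and none fell, with a median log2 fold change of 0.88, and 9 rose without high replicate 2. LHY (AT1G01060) had 68.0, 66.9 and 71.9 CPM in pip2 at high humidity and 29.6, 24.9 and 26.6 CPM at low humidity (1.35 ± 0.074, adjusted p = 2.43e-09). CCA1 had 76.9, 86.0 and 67.6 CPM at high and 41.7, 40.9 and 44.8 CPM at low humidity (0.86 ± 0.081, adjusted p = 8.84e-07). RVE1, a relative of LHY, had 22.8, 29.3 and 23.5 CPM at high and 8.44, 8.31 and 7.22 CPM at low humidity (1.66 ± 0.13, adjusted p = 1.92e-07). The groups of all 3 were apart. The coactivator genes LNK2 (1.17 ± 0.081) and LNK3 (1.0 ± 0.069) rose, and PRR9 was the member without a call (0.053 ± 0.10, adjusted p = 0.751). Evening genes were mixed, with 4 of 21 higher and 6 lower. PRR5 had 4.70, 8.06 and 6.69 CPM at high and 14.7, 18.5 and 16.5 CPM at low humidity (-1.35 ± 0.16, adjusted p = 1.59e-05). FKF1 (-1.64 ± 0.23) and ELF4 (-1.22 ± 0.20) fell, while TOC1 (0.12 ± 0.075, adjusted p = 0.272) and LUX (0.039 ± 0.088, adjusted p = 0.793) did not pass. The hour of sampling was not given, and its part in these values was not tested.

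The evening element AAAATATCT, which LHY and CCA1 are known to bind, was present in 9.57% of promoters of genes that fell at least 2-fold, 1.91% of those that rose at least 2-fold and 2.44% of all. Of genes with 1 match 23.2% fell and 9.84% rose, and of the 20 genes with 2 or more 20.0% fell and 15% rose, against 11.8% and 12.3% of genes with none. It was present in 38.1% of 21 promoters of the evening list, and the G-box in 58.3% of 12 promoters of the morning list. GPT2 and RAB18, described above with sugar and drought, held 1 match each, as did PRR5. The capitals mark the evening element (AGATATTTT on the other strand), CCGAC and the G-box.
GPT2, chr1:22824164-22824413, plus: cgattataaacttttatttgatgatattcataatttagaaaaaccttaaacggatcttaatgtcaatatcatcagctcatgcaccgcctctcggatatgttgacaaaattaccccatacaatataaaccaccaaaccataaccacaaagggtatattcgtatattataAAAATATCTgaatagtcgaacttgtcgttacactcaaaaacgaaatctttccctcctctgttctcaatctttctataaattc
RAB18, chr5:26519448-26519697, minus: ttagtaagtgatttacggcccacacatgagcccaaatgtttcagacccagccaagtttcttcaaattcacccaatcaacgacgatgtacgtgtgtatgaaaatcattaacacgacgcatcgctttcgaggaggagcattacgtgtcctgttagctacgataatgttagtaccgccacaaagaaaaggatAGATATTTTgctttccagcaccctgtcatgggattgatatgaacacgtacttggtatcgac
PRR5, chr5:8358547-8358796, minus: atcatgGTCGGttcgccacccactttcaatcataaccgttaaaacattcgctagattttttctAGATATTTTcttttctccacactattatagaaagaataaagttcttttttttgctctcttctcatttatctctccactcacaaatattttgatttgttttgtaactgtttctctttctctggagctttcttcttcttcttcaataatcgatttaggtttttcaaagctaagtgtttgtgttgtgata
LHY, chr1:37872-38121, minus: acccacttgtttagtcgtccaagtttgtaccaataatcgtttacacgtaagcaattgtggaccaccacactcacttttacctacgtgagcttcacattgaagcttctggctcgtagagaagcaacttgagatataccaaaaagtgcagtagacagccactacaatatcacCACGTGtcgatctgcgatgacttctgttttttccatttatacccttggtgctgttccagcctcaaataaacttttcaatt
These 8 promoters were picked after the values of their genes were seen. The W-box core TTGAC, bound by WRKY factors, was about as frequent in genes that rose (42.2%), in genes that fell (45.0%) and in all (43.9%). GCCGCC was present in 2.63% of promoters of genes that rose, 0.478% of those that fell and 1.85% of all, and the telo-box AAACCCTA in 2.39%, 2.39% and 4.07%.

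**Figure D2:**
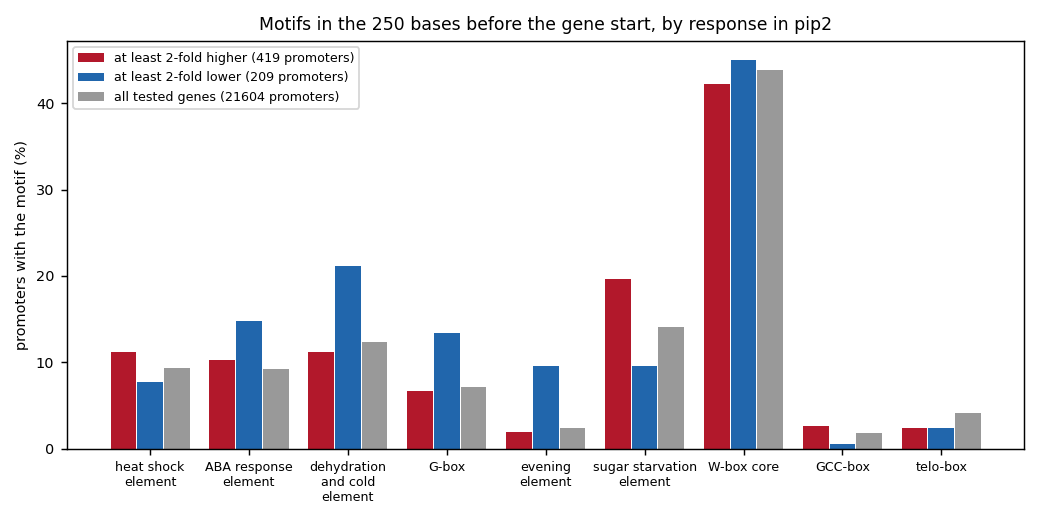
Share of promoters (%, bars from 0) with each of 9 short motifs in the 250 bases before the gene start, for genes that rose at least 2-fold in pip2 (red, 419 promoters), genes that fell at least 2-fold (blue, 209) and all tested genes (grey, 21604). The sugar starvation element was most frequent in genes that rose (19.6%), and the drought and cold element (21.1%), the G-box (13.4%) and the evening element (9.57%) were most frequent in genes that fell.

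Photosynthetic genes rose a little. Of 45 tested, 25 rose and 1 fell, with a median log2 fold change of 0.24, and 21 rose and 2 fell without high replicate 2. Their summed level was 55500 to 59300 CPM in pip2 at high humidity and 42200 to 51200 CPM at low humidity, so a green-tissue signal moved with humidity. In bulk samples fewer cells of a type and less RNA per cell cannot be told apart, and the part of this in other results was not tested. LHB1B1 (AT2G34430, also LHCB1.4), a light-harvesting protein of photosystem II, stood out with 123, 170 and 171 CPM at high and 24.6, 33.1 and 39.5 CPM at low humidity (2.25 ± 0.20, adjusted p = 5e-05). LHCB2.3 (0.77 ± 0.078) and LHCB4.2 (0.65 ± 0.067) rose less, and RBCS1A, a small subunit of Rubisco, was level at 5530, 5980 and 5820 CPM at high and 5030, 6210 and 6250 CPM at low humidity (-0.013 ± 0.090, adjusted p = 0.937). The 1 member that fell was PSBS, which sheds excess light as heat (-0.33 ± 0.076, adjusted p = 0.00474). Among regulators of chloroplasts and chlorophyll synthesis 5 of 13 rose and 4 fell, with ELIP1, a protein induced by excess light, lower at 25.3, 28.4 and 17.0 CPM at high against 52.3, 68.8 and 47.2 CPM at low humidity (-1.25 ± 0.21, adjusted p = 0.00213).

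Several water channel genes rose. Of 13 PIP genes 6 rose and none fell, also without high replicate 2. PIP2;1 had 787, 859 and 718 CPM in pip2 at high humidity and 389, 464 and 450 CPM at low humidity (0.86 ± 0.079, adjusted p = 7.46e-07). PIP1;5 had 277, 351 and 231 CPM at high and 157, 175 and 156 CPM at low humidity (0.82 ± 0.15, adjusted p = 0.00301). PIP2;7 rose by little at a high level, with 1340, 1420 and 1290 CPM at high and 1110, 1140 and 1110 CPM at low humidity (0.27 ± 0.068, adjusted p = 0.00792). The groups were apart in all of these. In col0 PIP2;7 had -0.12 (adjusted p = 0.215) and PIP1;3 -0.041 (adjusted p = 0.661, against 0.33 in pip2), but the differences of 0.39 and 0.37 between the genotypes had adjusted p-values of 0.125 and 0.0808. Among 14 TIP, NIP and SIP genes 4 rose and 1 fell. The vacuole channel TIP2;1 had 1080, 1100 and 1060 CPM at high and 627, 633 and 658 CPM at low humidity (0.76 ± 0.059, adjusted p = 1.07e-07). NIP5;1, a boron channel, rose (0.94 ± 0.17, adjusted p = 0.00251), and TIP4;1 was the member that fell (-0.87 ± 0.19).

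Cell wall genes went both ways. Of 29 expansin and xyloglucan enzyme genes 10 rose and 6 fell in pip2, or 8 and 6 without high replicate 2. In col0 6 rose and 10 fell, and the difference between the genotypes passed the test for 4 of the 29. XTH15 (AT4G14130), which cuts and rejoins xyloglucan, had 113, 112 and 117 CPM in pip2 at high humidity and 29.4, 33.7 and 30.8 CPM at low humidity (1.87 ± 0.082, adjusted p = 1.98e-10). XTH27 rose by 1.26 ± 0.11. The expansin genes EXPA10 (-0.98 ± 0.11), EXPA15 (-0.92 ± 0.11) and EXPB3 (-0.85 ± 0.078), whose products loosen the wall, fell. TCH4, a touch-induced enzyme of the XTH family, had 11.8, 27.6 and 43.7 CPM at high and 4.89, 5.77 and 4.73 CPM at low humidity (2.43 ± 0.58, adjusted p = 0.0172), and its adjusted p was 0.0514 to 0.0614 without any 1 low library.

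Rapid touch and wound genes varied from library to library. Of 31 tested, 5 rose and 1 fell in pip2, which is 19.4% called and below the background of 24.2%. Without high replicate 2, 1 rose and none fell. Leaving out any 1 pip2 library gave 1 to 9 rises. Relative to the low mean the list averaged -0.28, 0.43 and 0.77 log2 in high replicates 1, 2 and 3, so the high libraries fell on both sides of the low ones. In col0 18 of the 31 rose. No member's difference between the genotypes passed, and ERF6 shows the overlap, with 1.17, 4.31 and 4.65 CPM at high and 1.48, 1.09 and 1.1 CPM at low humidity in pip2 (1.47 ± 0.45, adjusted p = 0.0316, and 0.0593 to 0.117 without high replicate 2, high replicate 3 or any 1 low library). WRKY22 was steadier (3.41, 4.35 and 4.39 CPM at high, 1.33, 1.45 and 1.89 CPM at low humidity, 1.38 ± 0.25, adjusted p = 0.000675).

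Ethylene and low-oxygen genes rose in part. Of 23 ethylene genes 10 rose and 1 fell, or 7 and none without high replicate 2. RAV1 had 12.1, 20.3 and 22.7 CPM in pip2 at high humidity and 5.97, 4.88 and 5.13 CPM at low humidity (1.79 ± 0.22, adjusted p = 9.89e-05), and TEM1, its relative that delays flowering, had 15.8, 21.7 and 23.0 CPM at high and 6.81, 6.65 and 8.12 CPM at low humidity (1.49 ± 0.20, adjusted p = 0.000159). ARL, an organ size gene, rose by 1.41 ± 0.22. The groups were apart in these genes. Of 18 hypoxia genes 9 rose and 2 fell, with 1 to 3 falls when any 1 pip2 library was left out. Those that rose included LBD41 (83.5, 96.0 and 104 CPM at high, 55.4, 51.0 and 55.2 CPM at low humidity, 0.81 ± 0.088), the oxygen sensor PCO1 (0.74 ± 0.093) and haemoglobin HB1 (1.46 ± 0.37). The fermentation gene ADH1 had 7.94, 9.45 and 16.2 CPM at high and 7.85, 9.5 and 7.07 CPM at low humidity and did not pass (adjusted p = 0.145).

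Genes of other hormones gave a mixed picture. Of 22 cytokinin genes 7 were called higher and 1 lower: the response regulator gene ARR4 had 25.9, 23.8 and 32.6 CPM in pip2 at high humidity and 20.9, 19.5 and 17.0 CPM at low humidity (0.52 ± 0.12, adjusted p = 0.00495), and the receptor gene AHK4 was the one that fell (-0.46 ± 0.11). Auxin genes gave 4 rises and 3 falls among 33, close to the background shares, with GH3.5, which conjugates auxin, at 87.2, 89.6 and 85.8 CPM at high and 44.7, 37.3 and 41.8 CPM at low humidity (1.08 ± 0.076, adjusted p = 3.11e-08), and the auxin synthesis gene TAA1 lower (-0.58 ± 0.11). Gibberellin genes gave 4 rises and 3 falls among 19, or 4 and 5 without high replicate 2, with GA2OX8, which inactivates gibberellin, higher (1.2 ± 0.17) and the repressor RGL1 lower (-0.58 ± 0.076). Brassinosteroid genes gave 5 rises and 2 falls among 21, or 5 and 1 without high replicate 2. Of 20 salicylic acid and immunity genes 2 rose and 6 fell, or 1 and 6 without high replicate 2. Those that fell included PCC1 with 3, 5 and 3 counts at high and 48, 22 and 44 counts at low humidity, WRKY54 (-1.49 ± 0.26) and NIMIN-2 (-1.66 ± 0.24), while PR4 rose (2.26 ± 0.36).

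Part of the wax and flavonoid genes fell. Of 35 wax and cutin genes 13 fell and 2 rose, or 15 and 1 without high replicate 2. CER1, of the last step to wax alkanes, had 889, 923 and 748 CPM in pip2 at high humidity and 1020, 1120 and 1100 CPM at low humidity (-0.34 ± 0.080, adjusted p = 0.00491). DEWAX, a repressor of wax genes, had 43.5, 62.8 and 51.7 CPM at high and 12, 11.8 and 14.0 CPM at low humidity (2.06 ± 0.14, adjusted p = 3.59e-07). Every high library lay above every low one for the repressor and below every low one for CER1. Of 17 flavonoid genes 9 fell and 1 rose, or 9 and 0 without high replicate 2. Those that fell included FLS1 of flavonol synthesis with 447, 395 and 366 CPM at high and 557, 674 and 628 CPM at low humidity (-0.62 ± 0.083, adjusted p = 4.07e-05), and the flavonol regulator MYB11 with 3.02, 2.57 and 1.5 CPM at high and 7.26, 7.17 and 7.07 CPM at low humidity (-1.6 ± 0.20, adjusted p = 2.15e-05).

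Most genes of DNA replication fell, and few regulators of meristem identity passed the test. Of 18 replication genes 13 fell and none rose, with a median log2 fold change of -0.38. This count rested on single libraries: 6 fell without high replicate 2, and 6 to 12 fell when any 1 pip2 library was left out, with low replicates 1 and 3 also moving it by more than 1.5 times. In the separate col0 libraries 17 of the 18 fell and none rose, with a median of -0.57. PCNA1, the sliding clamp, had 25, 19.1 and 25.8 CPM in pip2 at high humidity and 33.9, 34.6 and 34.9 CPM at low humidity (-0.57 ± 0.11, adjusted p = 0.00112), and the helicase subunit gene MCM7 had 53.5, 42.3 and 55.2 CPM at high and 72.9, 69.3 and 72.2 CPM at low humidity (-0.51 ± 0.11, adjusted p = 0.00337). In both the groups were apart and replicate 2 was the lowest. Of 24 cyclin and mitosis genes 1 rose and 4 fell, or 3 and 2 without high replicate 2. That is 20.8% called, below the background of 24.2%, and leaving out any 1 pip2 library gave 1 to 3 rises and 1 to 4 falls. Of 40 stem cell and boundary regulators 1 rose and 3 fell, a share below the background. The riser was CLV1, the receptor that limits the stem cell pool, with 54.8, 57.1 and 59.8 CPM at high and 42.2, 40.1 and 40.6 CPM at low humidity (0.48 ± 0.064, adjusted p = 3.89e-05). WUS (-0.24 ± 0.17, adjusted p = 0.365) and STM (0.077 ± 0.12, adjusted p = 0.68) overlapped between the humidities. The 3 that fell, BAM2 (-0.22 ± 0.063) among them, did not pass without high replicate 2. Of 22 floral genes 5 fell and none rose, a share of 22.7% near the background of 24.2%, and 3 fell without low replicate 1. SPL9, which promotes flowering, had 95.3, 90.6 and 95.4 CPM at high and 118, 131 and 133 CPM at low humidity (-0.44 ± 0.057, adjusted p = 2.73e-05), and LFY and AP1 did not pass (adjusted p = 0.374 and 0.148).

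Lists of other tissues and of nutrition followed. Of 17 anther and pollen genes 1 rose (0 without high replicate 2), and the list averaged -0.012, -0.30 and 0.31 log2 in the high libraries and 0.24, -0.14 and -0.11 in the low ones. None of 6 carpel and ovule genes passed edgeR's test (1 had an unadjusted p under 0.05, and DESeq2 called 1 lower). None of 17 vascular and stem genes passed edgeR's test (3 had an unadjusted p under 0.05, and DESeq2 called 2 higher). Of 16 seed genes 4 were tested, and 1 rose and 1 fell, with a median log2 fold change of -0.087. The riser was PAP85, a vicilin-like seed storage protein gene, with 90, 188 and 123 counts in pip2 at high humidity and 1, 0 and 0 counts at low humidity. The member that fell was SESA4, another seed storage gene. It did not pass without high replicate 1 or 2 or low replicate 1 or 2 (adjusted p = 0.0554 to 0.16). Of 12 stomatal lineage genes 2 rose and 1 fell, a share of 25% at the background of 24.2%. Without high replicate 3 or low replicate 3 the rises were 1, and without high replicate 2 or low replicate 3 the falls were 0. Of 13 iron genes 5 rose and 3 fell, or 2 and 3 without high replicate 2, with the reductase gene FRO3 at 40.0, 57.1 and 43.1 CPM at high and 19.9, 17.8 and 17.7 CPM at low humidity (1.34 ± 0.13, adjusted p = 1.09e-05) and the ferritin genes FER3 (-0.69 ± 0.091) and FER4 (-0.60 ± 0.064) lower. Of 17 nitrogen genes 5 rose and 2 fell, with 0 to 1 falls when any 1 pip2 library was left out. Of 17 autophagy genes 5 rose and none fell, or 3 rose without high replicate 2, low replicate 1 or low replicate 3, led by ATG8E (1.44 ± 0.12, adjusted p = 1.67e-06), which coats the membranes of autophagosomes. Phosphate genes rose in 2 of 10 cases and ribosome biogenesis genes fell in 3 of 15, each 20.0% called and below the background of 24.2%. The phosphate rises numbered 0 with DESeq2 and 0 to 1 when any 1 pip2 library was left out. Antioxidant genes rose in 1 and fell in 4 of 13, or 0 and 4 without high replicate 2.

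**Figure D3:**
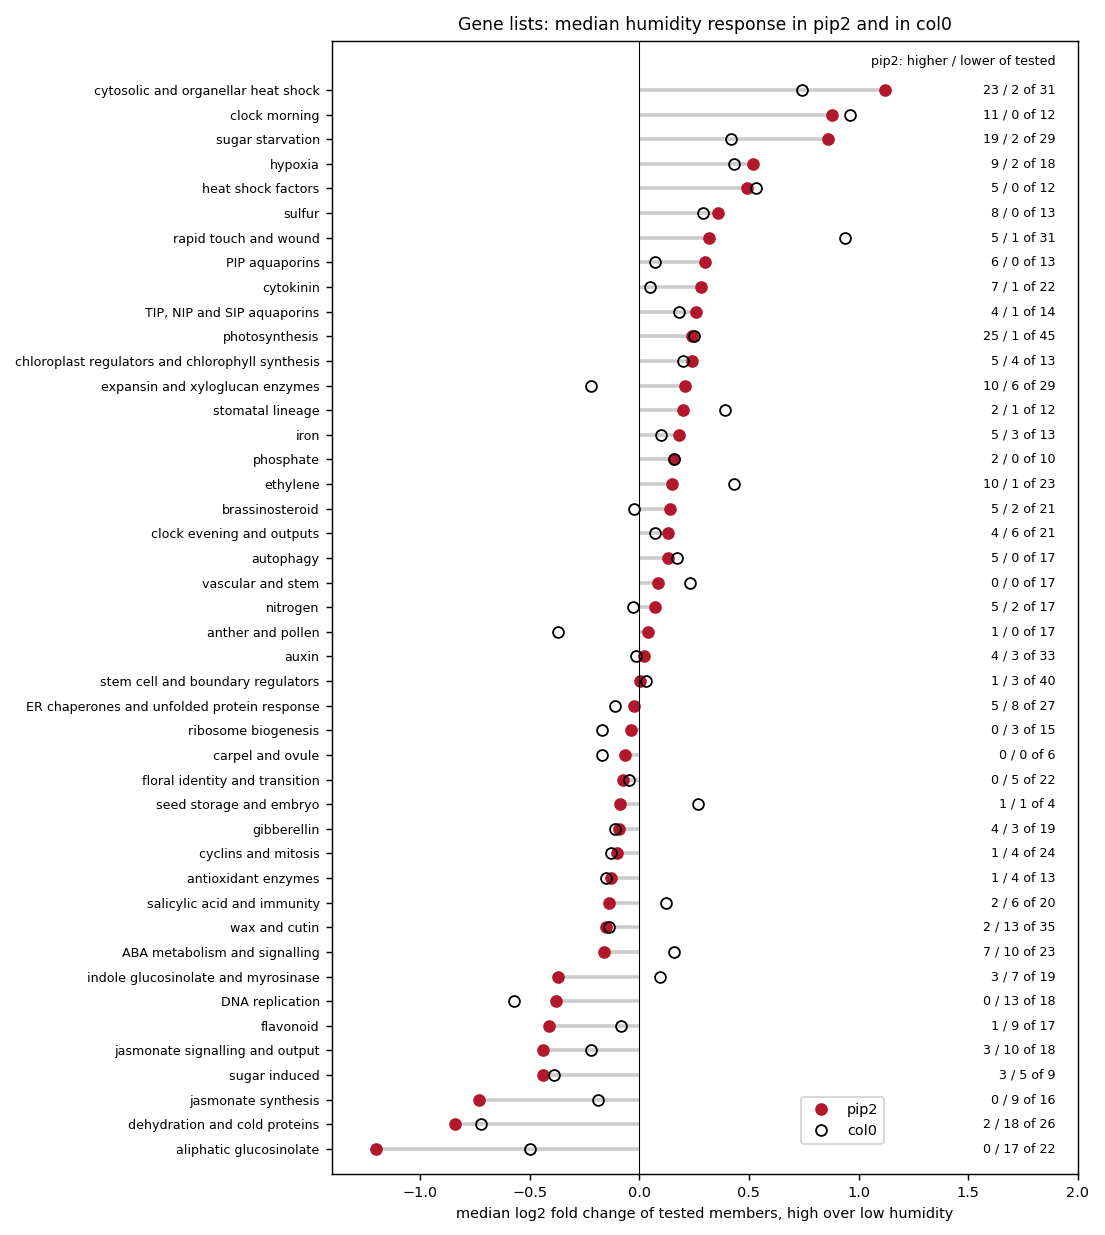
Median log2 fold change (high over low humidity) of the tested members of 44 gene lists in pip2 (filled red) and col0 (open black), ordered by the pip2 value, with the number of members that rose and fell in pip2 at the right. Heat shock (1.12), clock morning (0.88) and sugar starvation (0.86) genes lie at the upper end, and aliphatic glucosinolate (-1.2) and dehydration (-0.84) genes at the lower end.

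Most of the mutant's response was also seen in the wild type. In col0 6614 genes passed (30.2%), 3127 higher (14.3%) and 3487 lower (15.9%), and the 2 comparisons share no library. Of the genes that rose in pip2, 1871 also rose in col0, which is 69.7% of the pip2 genes and 59.8% of the col0 genes. Of those that fell in pip2, 2001 also fell in col0, 76.7% of the pip2 genes and 57.4% of the col0 genes. Opposite calls were few: 25 genes rose in pip2 and fell in col0, and 4 did the reverse. Of the genes that rose at least 2-fold in pip2, 343 of 426 rose in col0 (80.5%), and of those that fell at least 2-fold, 139 of 212 fell in col0 (65.6%). A missing call in col0 is not a difference: the difference between the genotypes, tested below, passed for 9 of the 426 and 2 of the 212. Among 3872 genes called in the same direction in both, 42.5% had the larger change in pip2, and the median absolute log2 fold change was 0.40 in pip2 and 0.44 in col0.

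**Figure D4:**
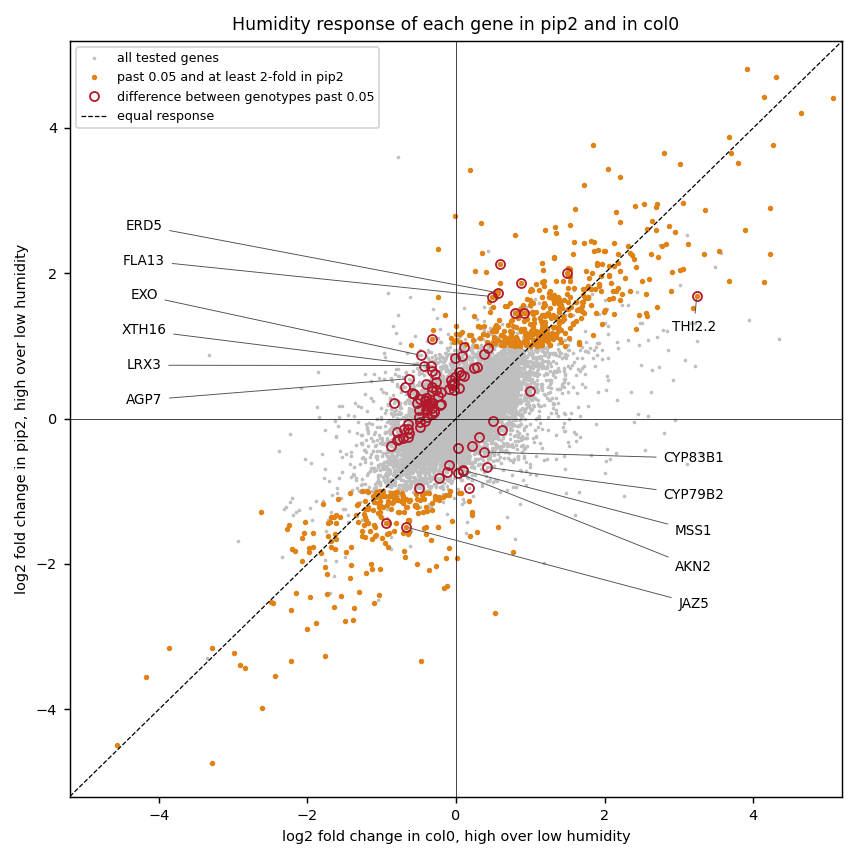
Log2 fold change (high over low humidity) of each tested gene in pip2 (vertical axis) against col0 (horizontal axis), with genes past 0.05 and at least 2-fold in pip2 in orange and genes whose difference between genotypes passed 0.05 ringed in red; 3 genes lie outside the axes, which end at 5.2. Orange points lie along the dashed line of equal response, and ringed genes such as EXO (0.87 in pip2, -0.47 in col0) and THI2.2 (1.69 in pip2, 3.24 in col0) lie off it.

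The difference between the responses of the genotypes was itself tested as an interaction. It passed for 97 genes (0.443% of those tested), with a higher response in pip2 for 78 and a lower one for 19. Of the 97, 23 rose in pip2 and fell in col0, 17 rose in pip2 without a call in col0, 13 rose in both, and 21 fell in col0 without a call in pip2. Another 10 fell in both, 8 fell in pip2 without a call in col0, 3 fell in pip2 and rose in col0, and 2 rose in col0 without a call in pip2. For the 78 genes with the higher response, the genotypes lay closer to each other in humid air than in dry air. The median log2 ratio of pip2 over col0 was 0.031 at high and -0.54 at low humidity, and the ratio was the larger one at low humidity in 74 of 78. For the 19 genes with the lower response the median ratio was -0.16 at high and 0.51 at low humidity. These genes were chosen by the difference itself, so their ratios are a description. The counts depended on single libraries: 39 genes had the higher response without low replicate 1, and the number with the lower response was 10 without high replicate 1, 38 without high replicate 2, 8 without high replicate 3, 7 without low replicate 1 and 6 without low replicate 3.

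Some of the 78 genes are described next, several of them picked after their values were seen. EXO (AT4G08950), which promotes cell expansion with brassinosteroid, had 185, 185 and 205 CPM in pip2 at high and 96.6, 107 and 111 CPM in pip2 at low humidity. In col0 it had 204, 237 and 249 CPM at high and 330, 321 and 302 CPM at low humidity. EXO thus rose in pip2 (0.87 ± 0.078) and fell in col0 (-0.47 ± 0.077), a difference of 1.34 ± 0.11 (adjusted p = 1.06e-05). XTH16 (AT3G23730), a xyloglucan enzyme, had 232, 228 and 256 CPM at high and 135, 149 and 148 CPM at low humidity in pip2, and 241, 238 and 244 CPM at high and 334, 314 and 323 CPM at low humidity in col0 (difference 1.15 ± 0.086, adjusted p = 4.88e-06). LRX3, an extensin-like wall protein, had 84.4, 90.5 and 91.5 CPM at high and 55.5, 51.2 and 54.3 CPM at low humidity in pip2, and 88.0, 102 and 108 CPM at high and 129, 134 and 115 CPM at low humidity in col0 (1.07 ± 0.11, adjusted p = 0.000132). In all 3 genes the lowest values were those of pip2 in dry air and the highest those of col0 in dry air. AGP7, an arabinogalactan protein gene, had 14.0, 14.8 and 16.2 CPM at high and 10.4, 10.8 and 9.71 CPM at low humidity in pip2, and 12.3, 15 and 15.6 CPM at high and 21.9, 22.1 and 22.8 CPM at low humidity in col0 (1.18 ± 0.14, adjusted p = 0.000762).

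More of the 78 are given here, also picked after their values were seen. Wall genes among the 78 were not counted, so these examples do not show what share they make up. They included FLA2 (0.27 in pip2 and -0.49 in col0), AGP17 (0.51 and -0.27), EXLA2 (0.34 and -0.56), EXL3 (0.31 and -0.24), KCS9 (0.20 and -0.20) and THE1 (0.24 and -0.41), the last a receptor that senses the state of the wall. All of these rose in pip2 and fell in col0. BXL2 (1.46 and 0.91), PMR6 (0.70 and 0.24), XTH15 (1.87 and 0.87) and FLA13 (1.68 and 0.48) rose in both and more in pip2. AGP15 (-0.30 and -0.80) and the tubulin gene TUA5 (-0.20 and -0.64) fell in both and less in pip2. XTH8 (0.21 and -0.83), EXL5 (0.12 and -0.50), ACT11 (0.20 and -0.39) and SMT2 (0.091 and -0.30) fell in col0, and their changes in pip2 did not pass.

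Among the 19 with the lower response, THI2.2 (AT5G36910), a thionin defence peptide gene, rose in both genotypes and less in pip2. It had 17, 26 and 23 CPM in pip2 at high and 6.42, 8.15 and 6.03 CPM in pip2 at low humidity, and 29.5, 24.5 and 28.3 CPM in col0 at high and 2.59, 3.31 and 2.85 CPM in col0 at low humidity (difference -1.55 ± 0.23, adjusted p = 0.00437). The genotypes were apart in dry air, where pip2 was higher, and overlapped in humid air. A group of 4 genes of indole glucosinolate synthesis and its supply shared this side: CYP79B2 (-0.67 in pip2 and 0.42 in col0, difference -1.09 ± 0.21, adjusted p = 0.0292), CYP83B1 (-0.46 and 0.38, -0.85 ± 0.15, adjusted p = 0.0263), UGT74B1 (-0.41 and 0.020) and GSTF9 (-0.64 and -0.10). JAZ5 and LOX3 of the jasmonate pathway fell more in pip2 (-1.49 and -0.82) than in col0 (-0.68 and -0.23). The hexose transporter gene MSS1 (-0.71 and 0.091) and AKN2 (-0.75 and 0.030), a kinase of sulfate activation, fell in pip2 and did not pass in col0. CYP79B2 had 7.49 to 9.20 CPM in pip2 and 7.74 to 9.40 CPM in col0 at high humidity, and 12.6 to 14.5 CPM in pip2 and 4.91 to 7.58 CPM in col0 at low humidity. Of the 12 genes that the naming rule gave for the interaction, 7 did not pass without at least 1 pip2 library: FLA13, ERD5, CYP79B2, CYP83B1, JAZ5, MSS1 and AKN2. FLA13 also had an adjusted p of 0.0531 without the filter on low counts. All 7 lost the call without low replicate 1, and the adjusted p was then 0.0561 (CYP79B2) to 0.145 (MSS1). All but ERD5 lost it without low replicate 3. Without high replicate 1, CYP79B2, CYP83B1, JAZ5, MSS1 and AKN2 did not pass, and without high replicate 3, FLA13, ERD5, CYP83B1, JAZ5 and MSS1 did not. FLA13, ERD5 and CYP79B2 did not pass without low replicate 2.

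**Figure D5:**
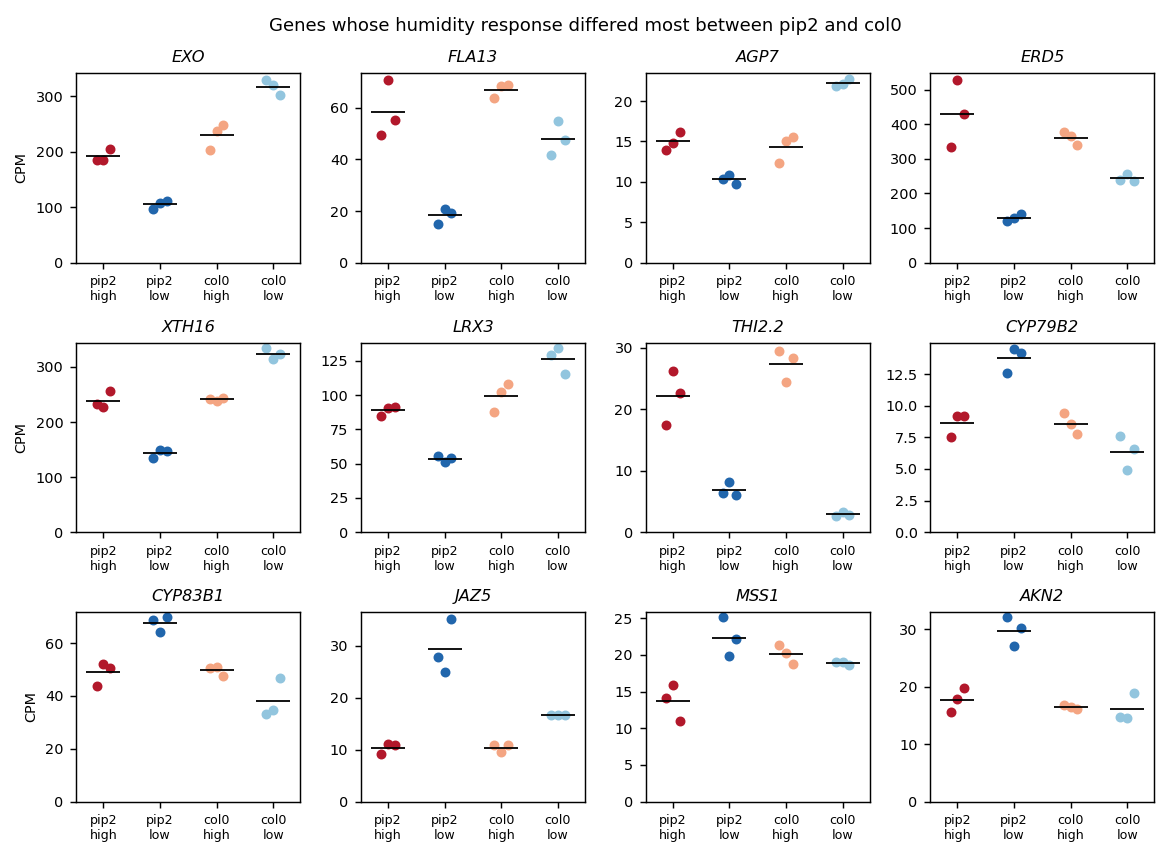
Levels in CPM (linear axes from 0) of the 12 genes named for the interaction, in the 3 libraries of pip2 high (red), pip2 low (blue), col0 high (light red) and col0 low (light blue), with black lines at the group means; the first 6 have the higher and the last 6 the lower response in pip2. EXO shows 185 to 205 CPM in pip2 high, 96.6 to 111 CPM in pip2 low, 204 to 249 CPM in col0 high and 302 to 330 CPM in col0 low.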

How the data were processed

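The deposited count table holds raw whole-number read counts per gene that the authors made from 12 libraries, and the deposited TPM table holds TPM values scaled by the authors for length and depth. Trimmomatic 0.39, HISAT2 2.2.1 and featureCounts 2.0.6 were used with TAIR10, per the submitters' processing notes. Whether counting used strand is not known from these sources, and overlapping antisense genes cannot be told apart. The count table lists 25424 genes. None is at 0 in col0 low replicate 1, so genes silent in that library are not analysed here. A TPM value was absent for 2537 genes. Identifiers were matched to the RefSeq annotation of TAIR10.1 (25326 matched, 9664 with a symbol), and promoters were read from its sequence.

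Genes were filtered with filterByExpr (minimum count 10, minimum total 15), which left 21897, and scaled by TMM. Fits used edgeR 4.0.16 (quasi-likelihood) under R 4.3.3 with a mean for each of the 4 groups over 12 libraries and a shared spread (biological coefficient of variation 10.3%). Tests were two-sided with Benjamini-Hochberg adjustment over all tested genes and a threshold of 0.05. SEs were derived by dividing each log2 fold change by the root of its F, and fold changes are high over low humidity. On simulated counts with 200 of 21897 genes changed, the humidity test in pip2 recovered 38.8%, 79.1% and 97.0% of genes changed by 0.5, 1 and 2 log2, with 4.03% of calls false. In the data 24.2% of tested genes passed, a far larger share than was changed in the simulation, so these rates may not hold there.

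The genes, lists, motifs and tests were chosen with earlier results of these data known. Genes were named by a rule. It takes the 15 genes with the highest and 15 with the lowest log2 fold change that passed, averaged 5 CPM or more, had no overlap between groups and carried a symbol. It adds the 10 most abundant genes by TPM in each direction that changed at least 2-fold, up to 4 members of each list, and 6 genes at each end of the interaction. Other members named were chosen after their values were seen. Gene lists are described by counts and medians, with no test of the list. Alternatives were RLE size factors, no filter, DESeq2 1.42.0, a replicate block, the 6 pip2 libraries alone, and each pip2 library left out.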

Additional observations from a re-analysis of the deposited data

Results flagged for a closer look

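The humidity response differed between pip2 and col0 for 97 genes by the interaction test of edgeR (adjusted p under 0.05). Among list members and the genes that the naming rule gave, the difference, pip2 minus col0 on the log2 scale, was positive for EXO (1.34), FLA13 (1.2), AGP7 (1.18), ERD5 (1.16), XTH16 (1.15), LRX3 (1.07), XTH8 (1.03), XTH15 (1.0), MIOX2 (0.89), XTH9 (0.68), SPL5 (0.62) and NIA2 (0.50). MIOX2, an oxygenase gene of the sugar starvation list, rose in pip2 by 0.99 ± 0.10 and had 0.10 in col0 (adjusted p = 0.482). XTH9 rose in pip2 (0.28 ± 0.073) and fell in col0 (-0.40). NIA2, a nitrate reductase gene, rose in pip2 (0.47 ± 0.070) and had -0.030 in col0 (adjusted p = 0.789). SPL5, a flowering gene, fell in col0 (-0.79) and had -0.18 in pip2 (adjusted p = 0.185). The difference was negative for UGT74B1 (-0.43), P5CS1 (-0.51), GSTF9 (-0.54), LOX3 (-0.59), AKN2 (-0.78), MSS1 (-0.80), JAZ5 (-0.81), CYP83B1 (-0.85), CYP79B2 (-1.09) and THI2.2 (-1.55).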

How the results depend on the processing

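The counts of genes that rose and fell in pip2 stayed within 1.5 times of 2684 and 2610 under every alternative run. Without 1 library they were 2095 to 2443 and 1910 to 2365, and with the 6 pip2 libraries alone 2263 and 2114. The interaction counts did not: 130 genes had the higher and 54 the lower response with DESeq2, and 147 and 50 with a replicate block. Without 1 pip2 library they were 39 to 74 and 6 to 38, and 46.4% to 79.4% of the 97 genes were called again. The cause was not tested.

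Whether replicate numbers pair the samples was not settled. Same-numbered pip2 libraries deviated together at -0.0303, 0.207 and 0.0478, and libraries with different numbers at -0.168 to 0.143. With the replicate block 3225 genes rose and 3116 fell in pip2. Of 198 named calls in pip2, 0 were lost with RLE size factors, without the filter or with the block, 2 with DESeq2 (SPX1 and SQD1), 8 with the 6 pip2 libraries alone and 19 without at least 1 library. None reversed.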
